A study of Schizosaccharomyces pombe with 6 samples.

Results

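The 540 peak-free stretches of the chromosome arms are runs of at least 200 bp that lay under no peak of the untagged ChIP list and under no peak of the *SUMO-KallR* ChIP list. They were chosen by the peak starts and ends of these lists, after 100 kb at each chromosome end and 50 kb on each side of the middle of each central core were set aside. They were 540 of 3136 arm stretches of that minimum length when the arms were divided into sequence under both lists, under 1 of them and under neither. Together they held 341 kb, or 2.92%, of the 11.7 Mb of arm sequence analysed. Because peak positions defined them, the absence of peaks and the lengths are given here as a description without a test, and the sequence and annotation beneath them, which the choice did not use, are compared with the rest of the arms.

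The series is a calibrated ChIP-seq experiment in *Schizosaccharomyces pombe* (fission yeast) with an anti-GFP antibody against CFP-Cnp1, the centromeric CENP-A histone fused to a fluorescent protein. The 3 strains were an untagged strain, which carries no CFP-Cnp1, a WT strain with CFP-cnp1:Kan, and *SUMO-KallR*, in which *pmt3-KallR* encodes a SUMO whose lysines are all arginines, so that no SUMO chains form, combined with CFP-cnp1:Kan. All cultures grew in rich YES medium, and budding yeast cells were added to each before crosslinking as the calibrator. Each strain gave 1 ChIP library, so no difference between strains can be set against replicate error and no test between them was made. The strain list of the study gives CFP-Cnp1 strains with *ade6-704*, *leu1-32* and *ura4-D18*, while no source used here gives the full genotype of the untagged strain. The untagged list held 961 peaks, the *SUMO-KallR* list 1615 and the WT list 59. Of the WT peaks, 7 lay in the arms and none overlapped a peak-free stretch. The WT list left 99.98% of the arms uncovered, so hardly any overlap could occur. The untagged list left 3.99% of the arms uncovered and the *SUMO-KallR* list 6.68%.

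Cnp1 marks the central cores of the 3 centromeres, while nucleosomes of the arms carry ordinary histone H3. The fission yeast genome is compact, and coding sequences are separated by short regions that hold promoters, transcript ends and many non-coding RNA genes. Promoters of strongly transcribed yeast genes are known for short stretches depleted of nucleosomes. Runs of A or T are described as disfavouring nucleosomes mainly in budding yeast, and this need not hold in fission yeast. Nucleosomes were not measured here. A stretch without a peak is a place where neither list has a called peak, and it is not a measurement of zero reads. The lists do not show whether pieces of it too short to be called passed the cutoff of the peak caller. Nor do they show whether every base under a peak passed this cutoff.

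Sequences of 4 kinds are shown first, since the results below return to them. All are read from ASM294v3, 5′ to 3′ on the forward strand. The first pair flanks *ura4*, and the capitals mark the site AAGCTT, which the restriction enzyme HindIII cuts, near either end of the stretch that holds this gene. The left one lies at chrIII:115315-115380 and the right one at chrIII:117073-117138.
ura4 left site: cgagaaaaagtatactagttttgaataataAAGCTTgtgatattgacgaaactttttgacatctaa
ura4 right site: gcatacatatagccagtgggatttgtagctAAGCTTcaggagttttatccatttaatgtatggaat

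The next pair is the 300 bases before the annotated transcripts of *eno101*, which encodes enolase, at chrII:2200896-2201195, and of *tdh1*, which encodes glyceraldehyde-3-phosphate dehydrogenase, at chrII:2807295-2807594. They are shown because stretches reached the coding starts of glycolytic genes. Both lie wholly in a peak-free stretch, and the capitals mark the letters TATANATA and TGACGT on either strand. In *tdh1* the TGACGT and its reverse complement overlap.
eno101 upstream: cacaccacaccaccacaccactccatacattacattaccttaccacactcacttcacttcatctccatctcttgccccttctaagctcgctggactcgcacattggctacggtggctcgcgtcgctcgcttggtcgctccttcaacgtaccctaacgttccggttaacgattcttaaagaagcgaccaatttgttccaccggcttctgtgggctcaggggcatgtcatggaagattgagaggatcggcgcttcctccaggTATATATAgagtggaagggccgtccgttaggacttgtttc
tdh1 upstream: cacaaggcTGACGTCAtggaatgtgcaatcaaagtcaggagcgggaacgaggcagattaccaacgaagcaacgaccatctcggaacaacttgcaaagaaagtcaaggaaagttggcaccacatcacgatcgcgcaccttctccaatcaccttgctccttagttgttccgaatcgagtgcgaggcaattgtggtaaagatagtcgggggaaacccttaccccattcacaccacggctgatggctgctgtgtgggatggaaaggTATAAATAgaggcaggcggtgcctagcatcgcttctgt

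Runs of A or T are shown by a piece of the *hsr1* stretch at chrI:1955680-1955852, which lies in annotated non-coding RNA, and by a whole stretch of 204 bp between SPBC8D2.16c and *gmh4* at chrII:1389139-1389342, which is unannotated. The capitals mark runs of 10 or more A or T.
hsr1 run: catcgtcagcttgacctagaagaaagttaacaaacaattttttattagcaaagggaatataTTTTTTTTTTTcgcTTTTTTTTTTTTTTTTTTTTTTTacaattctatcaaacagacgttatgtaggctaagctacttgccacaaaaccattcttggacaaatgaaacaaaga
SPBC8D2.16c to gmh4: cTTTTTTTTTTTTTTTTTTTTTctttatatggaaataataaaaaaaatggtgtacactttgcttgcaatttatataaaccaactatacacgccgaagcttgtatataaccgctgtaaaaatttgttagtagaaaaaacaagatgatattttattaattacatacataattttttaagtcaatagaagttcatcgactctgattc

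The last sequence is coding and repeats itself. It comes from the glycoprotein gene SPBPJ4664.02, at chrII:694416-694631, and the capitals mark the second of 3 consecutive blocks of 72 bases. Each block itself holds shorter units that resemble each other. The block length was set beforehand, and the shortest repeat unit was not determined.
SPBPJ4664.02 repeat: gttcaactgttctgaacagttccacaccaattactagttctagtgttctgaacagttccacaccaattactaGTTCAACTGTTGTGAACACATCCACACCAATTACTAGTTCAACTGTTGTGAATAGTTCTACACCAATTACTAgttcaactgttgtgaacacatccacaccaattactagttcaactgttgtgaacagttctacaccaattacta

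Most stretches were short. The shortest had 200 bp, the lower quartile was 293 bp, the median 432.5 bp and the upper quartile 712 bp. The 95% order-statistic interval of the median ran from 404 to 456 bp. It concerns the position of the median over these chosen stretches and is no experimental error. Of the 540, 79 reached 1000 bp and 19 reached 2000 bp, and the 79 held 41.0% of the summed length. Near the minimum length, 18 stretches exceeded it by less than 10 bp or equalled it and were included, and 13 fell short of it by 10 bp or less and were not. In all, 146 shorter stretches with 20792 bp were left out. Neither list had peaks closer together than 151 bp.

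The uncovered sequence of the lists overlapped in part. Both lists left the same 362 kb uncovered, which was 77.7% of the sequence the untagged list left uncovered and 46.5% of that left by *SUMO-KallR*. Of 688 uncovered stretches of at least 200 bp in the untagged list, 523 held a peak-free stretch of both lists, and of 1183 in *SUMO-KallR* 514 did. An untagged peak set 723 of the 1080 edges, a *SUMO-KallR* peak set 354, and for 3 both lists ended at the same base. A stretch equalled the whole untagged uncovered stretch in 258 cases and the whole *SUMO-KallR* one in 72. Of the 803 untagged arm peaks, 561 ended at a stretch, with a median height of 18.1, the same as over all 803. Of the 1428 *SUMO-KallR* arm peaks, 310 did, with a median height of 14.8 against 16.0 over all. Heights are the deposited score divided by 10.

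Stretches occurred in every arm. Chromosome I held 233, or 44.1 per Mb, chromosome II 211, or 49.8 per Mb, and chromosome III 96, or 44.6 per Mb. Median lengths were 428, 418 and 468 bp in the same order. Among single arms the density ran from 42.0 per Mb in the left arm of chromosome I to 50.3 per Mb in the right arm of chromosome II. The stretches took 2.41% of the right arm of chromosome III and 3.44% of the right arm of chromosome I, the lowest and the highest share.

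**Figure D1:**
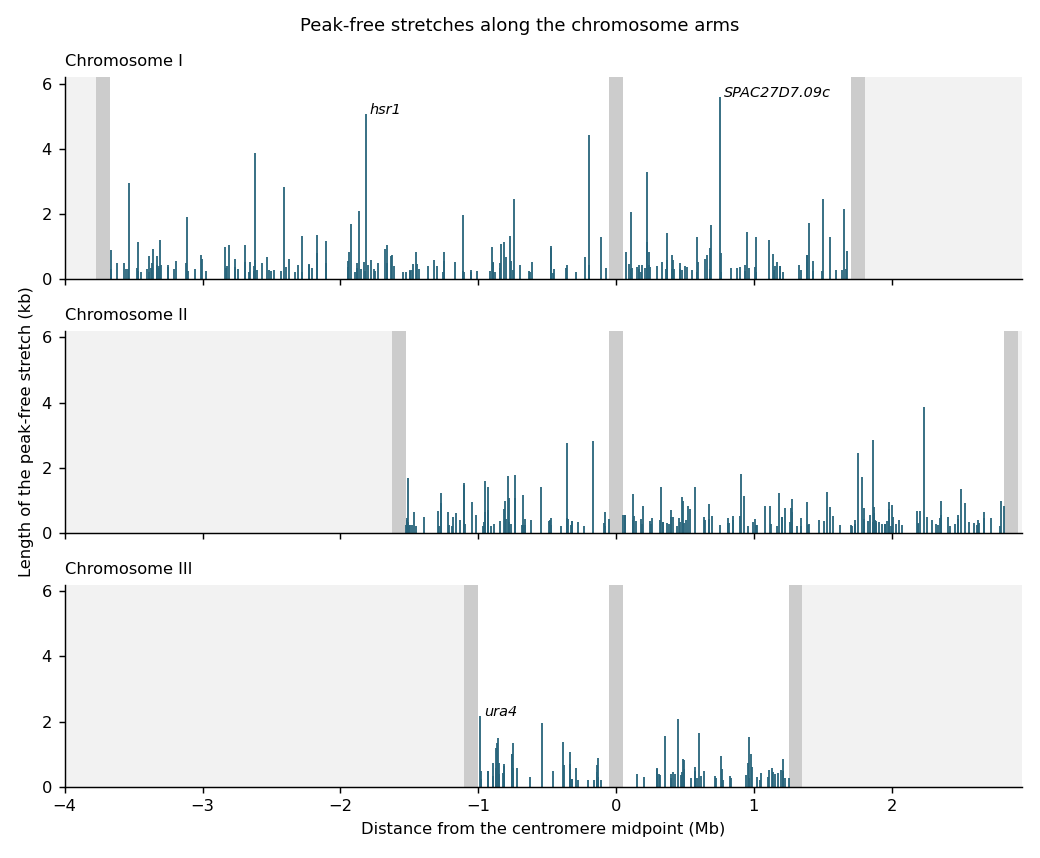
Length of each of the 540 peak-free stretches (kb, vertical lines) against its distance from the centromere midpoint (Mb) on the 3 chromosomes. Dark grey marks the sequence set aside and light grey lies beyond the chromosome ends, and the longest stretches, at SPAC27D7.09c (5604 bp) and *hsr1* (5059 bp), stand on chromosome I.

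The stretches were unevenly spaced. The distance from one stretch to the next in the same arm had a median of 12833 bp over 534 pairs of neighbours, with quartiles of 3229.5 and 28837.5 bp. Of these pairs, 169, or 31.6%, were less than 5000 bp apart, and 7 were at least 100000 bp apart. The widest distance was 156262 bp, from position 1667291 to 1823554 of chromosome I. The closest pair, on chromosome II, was 312 bp apart. Of 112 full windows of 100 kb, 4 held no stretch, the median window held 4, and the fullest held 12, at 200001 to 300000 of chromosome III.

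The stretches lay mostly outside coding sequence. Coding exons made up 6.27% of their bases and 58.8% of all arm bases. Annotated non-coding RNA, counted where no coding gene, repeat or structural RNA lay over it, made up 48.3% of the stretches and 11.2% of the arms. Unannotated sequence made up 29.2% against 8.45%, and long terminal repeats (LTRs), the ends that Tf retrotransposons leave in the genome, made up 4.97% against 0.544%. Untranslated exons were lower in the stretches, at 10.8% against 17.3%, and so were introns, at 0.0814% against 3.25%. No coding base at all lay in 460 of the 540 stretches, and 11 consisted of coding bases only.

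Sequence uncovered in just one of the lists was also mostly non-coding. Arm sequence of any run length under a *SUMO-KallR* peak only came to 104 kb, of which 10.2% was coding, 48.2% non-coding RNA, 22.6% unannotated and 3.03% LTR. That under an untagged peak only came to 417 kb, of which 8.61% was coding, 34.3% non-coding RNA, 33.6% unannotated and 5.49% LTR. The LTR share was thus above that of all arm sequence in these as well, and under an untagged peak only it was above the 4.97% of the peak-free stretches.

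Relative to genes, the share of bases in a stretch was highest upstream of coding starts, though not all stretches lay there. Of the bases 450 to 500 bp upstream of the coding starts of 4846 genes, 5.48% were in a stretch, the highest share of the windows examined around starts and stops. The share was 0.961% over the first 50 coding bases and 0.743% at 500 to 550 bp into the gene. At the coding stop it was 0.923% over 4841 genes, and 800 bp beyond the stop it was 2.11%.

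**Figure D2:**
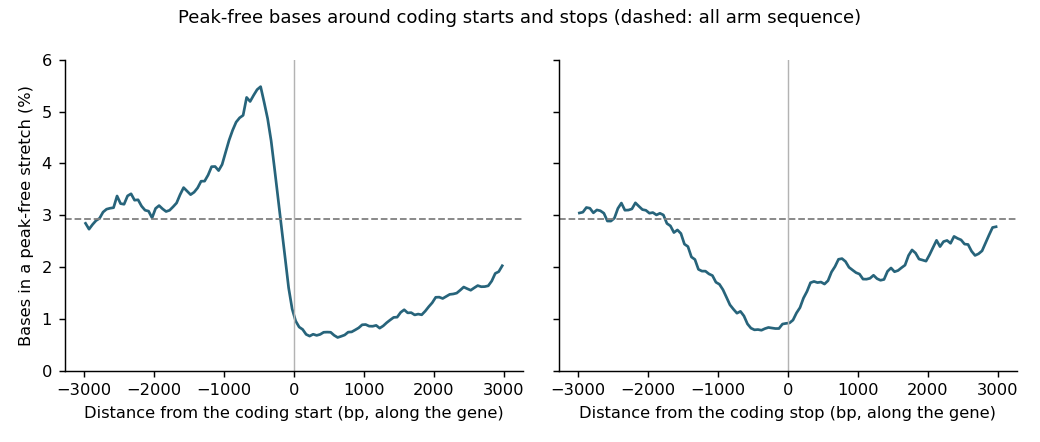
Share of bases (%) in a peak-free stretch over all genes, by distance from the coding start (left) or stop (right) in bp and in windows of 50 bp. The line reaches 5.48% upstream of the start and stays below the dashed line, the 2.92% of all arm sequence, from the start to 3000 bp downstream of it.

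Regions between neighbouring coding sequences were grouped by the direction of their genes. Of the stretches, 275 were centred in divergent regions, which hold the starts of both neighbours, 216 in tandem regions and 28 in convergent regions, which hold 2 gene ends. A further 21 were centred within a coding sequence. A stretch was found in 17.6% of 1326 divergent, 8.96% of 2188 tandem and 2.06% of 1311 convergent regions, against 9.47% of all 4825 regions. Divergent regions were also longer, with a median of 1017.5 bp against 732 bp in tandem and 379 bp in convergent regions. In tandem regions, which have one start and one stop, 118 stretches were nearer the start and 98 nearer the stop.

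The share rose with the length of the region. A stretch lay in 0.830% of regions under 500 bp, in 3.26% of those of 500 to under 1000 bp, in 16.0% of those of 1000 to under 2000 bp, in 49.7% of those of 2000 to under 4000 bp and in 78.8% of the 66 regions of 4000 bp or more. Among regions of 2000 to under 4000 bp the share was 46.1% in 178 divergent, 54.8% in 124 tandem and 50.0% in 24 convergent regions. Among regions of 500 to under 1000 bp it was 7.87%, 2.14% and 1.18% in the same order. Of the 25 longest regions, 22 held a stretch. As bases, the stretches took 0.694% of the regions under 500 bp and 23.3% of those of 4000 bp or more.

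**Figure D3:**
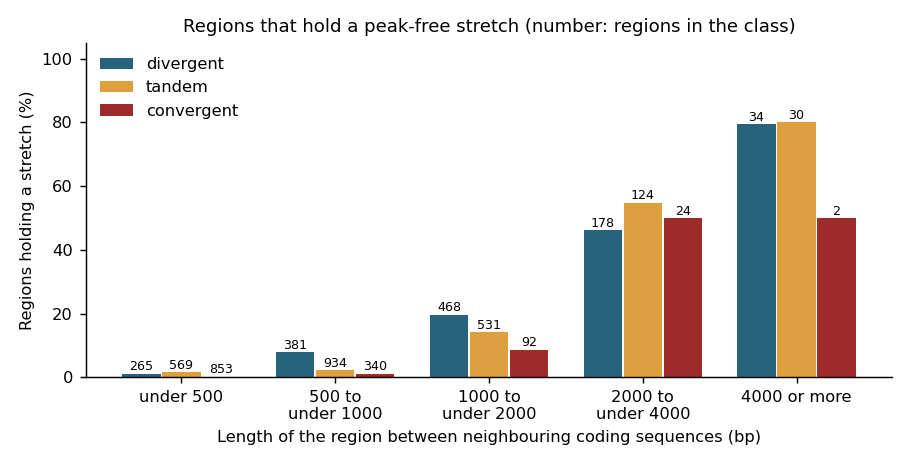
Share of regions between neighbouring coding sequences (%) that held a peak-free stretch, by length of the region (bp) and direction of the flanking genes, with the number of regions above each bar. The share rises with length in all 3 directions below 4000 bp, and in the last class the convergent bar rests on 2 regions.

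The longest stretch, with 5604 bp, lay at chrI:4523959-4529562 between SPAC27D7.09c and SPAC27D7.11c, which both encode But2 family proteins, and held 3 LTRs with 911 bp. It covered 581 coding bases of SPAC27D7.09c. The stretch at *hsr1*, which the choice of members had given as the longest, was the second. Of the 5604 bp, 2.25% of start positions began a 150-base word that occurs once in the genome. The reference repeats 3037 bp in tandem here. From 4523672 to 4529745, all 3037 bases compared at a shift of 3037 bp were identical. The headers of the deposited lists name uniquely mapped reads, and the part of repeated sequence in this stretch was not tested.

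The stretch at *hsr1*, which encodes a transcription factor of the response to hydrogen peroxide, was the longest one made wholly of unique 150-base words. It covered chrI:1952423-1957481, 5059 bp between *pcs2* and *hsr1*, and reached 9 bases into the annotated transcript of *hsr1*, whose coding start lay 1830 bp further. Of its bases, 4860 lay in non-coding RNA genes, 190 were unannotated and none was coding. The untagged list alone was free of peaks over 5134 bp here and the *SUMO-KallR* list over 5894 bp. The region between the coding sequences of *pcs2* and *hsr1* measured 8310 bp, the third longest of the arms, and a second stretch brought its peak-free share to 63.8%. The run of 23 T printed above lies in this stretch.

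**Figure D4:**
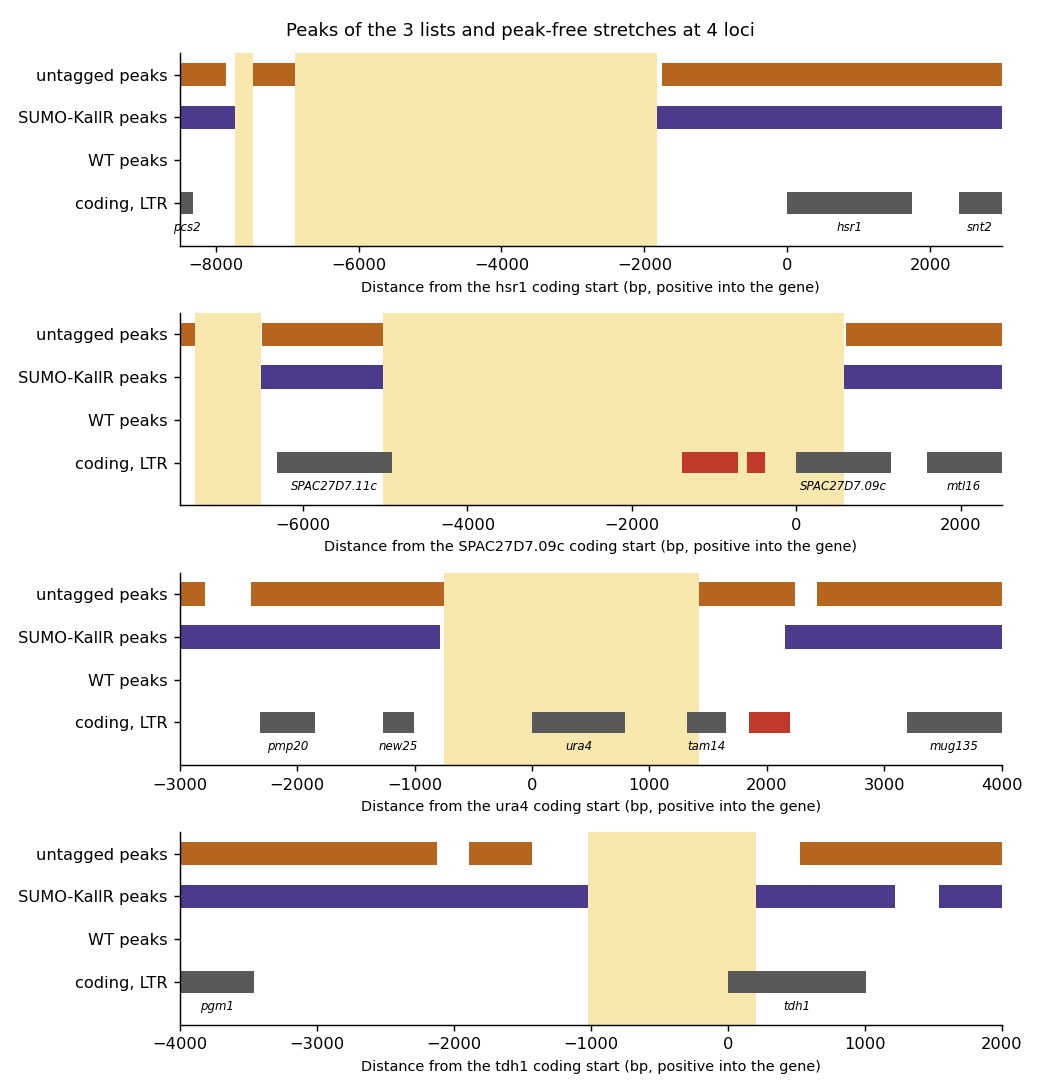
Peaks of the untagged, *SUMO-KallR* and WT lists (coloured bars), coding sequences (grey) and LTRs (red) against the distance from the coding start (bp) of *hsr1*, SPAC27D7.09c, *ura4* and *tdh1*, with peak-free stretches shaded yellow. No WT peak falls in any of the 4 windows, and the shading spans 5059 bp at *hsr1*, 5604 bp at SPAC27D7.09c, 2166 bp at *ura4* and 1227 bp at *tdh1*.

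The other stretches above 3000 bp held coding or transcribed sequence. The third, 4418 bp at chrI:3575462-3579879, covered the whole coding sequence of SPAC17A2.11 and part of SPAC17A2.10c. The fourth, 3880 bp at chrII:3858395-3862274, lay between *rgp1* and *ssn6*, the latter encoding a transcriptional corepressor, and the fifth, 3868 bp at chrI:1149640-1153507, held the whole coding sequences of *mug115*, SPAC56F8.13 and SPAC56F8.15. A stretch of 3283 bp upstream of the cell surface gene *pfl2* held those of SPAPB15E9.02c and SPAPB15E9.06. One of 2947 bp held the non-coding RNA gene *prl3*, and one of 2859 bp between *zfs1*, which encodes a zinc finger protein, and SPBPB7E8.01 held 4 LTRs. The 9848 bp between the last pair was the longest region of the arms, and 43.3% of it was free of peaks.

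Shorter ones among the 25 longest lay beside genes of varied function. They included 2821 bp between *fin1*, encoding a NIMA-like kinase, and the cyclin gene *pas1*, and 2776 bp between *rtn1*, encoding a reticulon, and *but2*. A stretch of 2055 bp lay upstream of *pma1*, the gene of the plasma membrane proton pump, and one of 2068 bp between *git3*, encoding the receptor of glucose signalling, and *rec7*, encoding a meiotic recombination protein. One of 1947 bp lay upstream of *sap1*, the gene of switch-activating protein, and one of 1919 bp between *lkh1*, a kinase gene, and *rad15*, the gene of a TFIIH subunit.

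The marker gene *ura4*, which encodes orotidine 5′-phosphate decarboxylase of uracil synthesis, was free of peaks in both lists over its whole length. The stretch ran from 115156 to 117321 of chromosome III, 2166 bp, and ended inside *tam14*. Its first HindIII site lay at 115345, 189 bp inside the left edge, and the next at 117103, with 213 bp between the end of that site and the right edge. The sites were 1758 bp apart, another site followed 45 bp after the second, and outside the stretch the nearest sites were at 113642 and 125096. *ura4-D18*, which the CFP-Cnp1 strains carry, is known as a deletion of the HindIII fragment with *ura4*. Untagged peaks set both edges of the stretch, and whether the untagged strain carries this allele is not stated. The part of a deletion in this stretch was not tested. *leu1* and *ade6*, whose alleles in these strains are known as point mutations, were under peaks of both lists over 100% of their length, and so was *pmt3*. *cnp1* was covered over 100% by the untagged and over 82.0% by the *SUMO-KallR* list. The nearest stretch to *cnp1* was 5579 bp away and that to *ade6* 14451 bp.

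Glycolytic genes had the highest shares of the 9 gene groups, and stretches came close to their coding starts. Glycolysis was not among the groups listed beforehand for naming genes, as the others were. All groups were compiled with earlier results known, so the ranking is a description. Within 300 bp of the coding start, 9 of 15 genes of glycolysis and fermentation had a stretch, against 4.66% of all 4853 coding genes in the arms. In the upstream region, which runs from the coding start to the neighbouring coding sequence, 11 of the 15 had one, or 73.3%, against 13.7% of all genes. Their upstream regions were longer than usual, with a median of 1515 bp against 870 bp. Among genes with an upstream region of at least 1000 bp, 8 of 11 glycolytic genes had a stretch, or 72.7%, against 571 of 2046 genes, or 27.9%.

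In 6 of these 11 genes the stretch ran past the coding start into the gene. At *tdh1* it had 1227 bp and covered the first 210 coding bases. At *adh1*, which encodes alcohol dehydrogenase, it covered 125 coding bases, and at *fba1*, which encodes aldolase, 103. At *pgk1*, the gene of phosphoglycerate kinase, it covered 36 coding bases, at *gpm1*, the gene of phosphoglycerate mutase, 23, and at *eno101* 15. At *pdc101*, the gene of pyruvate decarboxylase, it ended 41 bp before the coding start, at *pfk1*, the gene of phosphofructokinase, 53 bp, and at *pyk1*, the gene of pyruvate kinase, 153 bp. The nearest stretches of the 11 genes had 557 to 1973 bp, with a median of 915 bp. At *hxk2* the distance was 309 bp and at *gpd3* 1365 bp. The other 4 genes, *adh4*, *hxk1*, *pgi1* and *tpi1*, had none upstream.

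The printed sequences before *eno101* and *tdh1* were 47.7% and 48.7% A or T, below the 63.8% of the arms. The letters TATANATA occurred once in each. Over all stretches they occurred in 38.3%, against 18.0% of arm windows and 24.8% of windows of non-coding RNA or unannotated sequence only, both of the same lengths. These letters were searched after the sequences had been seen.

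**Figure D5:**
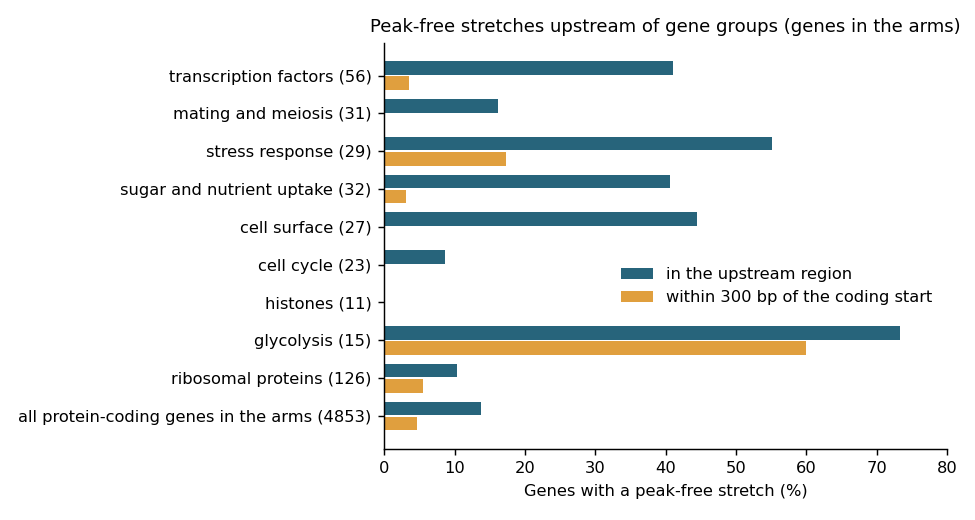
Share of genes (%) with a peak-free stretch in the upstream region (dark) or within 300 bp of the coding start (light) for 9 gene groups and for all coding genes in the arms, with the number of genes in brackets. Glycolysis has 11 and 9 of 15 genes, all genes have 13.7% and 4.66%, and the 11 histone genes have none.

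Stress genes had stretches at a greater distance. Of 29 stress response genes, 16, or 55.2%, had one upstream, against 13.7% of all genes. Within 300 bp of the start 5 had one, or 17.2%, against 4.66% of all genes. Their upstream regions had a median of 1608 bp, and the nearest stretch lay a median of 924 bp from the coding start. At *hsp9*, the gene of a small heat shock protein, a stretch of 1291 bp ended 78 bp before the start and took 67.2% of the region. At *trx2*, encoding thioredoxin, one of 524 bp ended 101 bp before it, and at *ssa2*, encoding an Hsp70 chaperone, one of 722 bp reached the start. At *hsp90* a stretch of 335 bp ended 265 bp before the start. *sod1*, encoding superoxide dismutase, *gpd1*, *cta3*, *pyp2* and *wis1* were also among the 16. Genes of the group without a stretch upstream included *sty1*, *pap1*, *hsp16*, *hsp104* and *tpx1*.

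Of 56 transcription factor genes, 23, or 41.1%, had a stretch upstream, against 13.7% of all genes. Within 300 bp of the start 2 had one, or 3.57%, against 4.66% of all genes. Their median upstream region was 1726.5 bp. Beside *hsr1*, the longest peak-free sums upstream were 2527 bp at *scr1*, the gene of the glucose repressor, 1545 bp at *fep1*, the gene of the iron-sensing factor, and 1535 bp at *ste11*, the gene of the regulator of sexual differentiation. At *atf1*, the gene of the stress activator, a stretch of 634 bp lay 1483 bp from the start, and at *pcr1*, the gene of its partner, one of 288 bp lay 988 bp away.

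Genes of the cell surface and of uptake had long upstream regions. Of 27 cell surface genes, 12, or 44.4%, had a stretch upstream, against 13.7% of all genes. None had one within 300 bp of the start, against 4.66% of all genes. At *gas2*, encoding a glucan-modifying enzyme, a stretch of 1122 bp took 70.2% of the region. Of 32 genes of sugar and nutrient uptake, 13, or 40.6%, had one upstream, again against 13.7% of all genes. Among them the hexose transporter genes *ght8* and *ght1* had 1791 and 1355 peak-free bp upstream, the zinc transporter gene *zrt1* 1691 bp and the ammonium transporter gene *amt1* 1539 bp. Of the other *ght* genes in the group, *ght2* and *ght4* also had a stretch upstream, and *ght5* and *ght6* had none. Median upstream regions were 2153 bp for the surface and 2189 bp for the uptake genes.

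Of 31 mating and meiosis genes, 5, or 16.1%, had a stretch upstream, near the 13.7% of all genes. Of 23 cell cycle genes, 2 had one, *pas1* and *wee1*, the gene of the kinase that delays mitosis, or 8.70%. Of 126 ribosomal protein genes, 13 had one, or 10.3%, also near the share of all genes, and 7 had one within 300 bp of the start, or 5.56%. The 11 histone genes had none, and their median upstream region measured 432 bp. Among genes with at least 1000 bp upstream, the share over all genes was 27.9%. It was 66.7% for stress, 57.9% for the cell surface, 50.0% for transcription factors and 41.4% for uptake. It was 27.8% for mating and meiosis and 16.7% for the cell cycle, and 7 of 28 ribosomal protein genes had one. This minimum does not equalise the lengths of the regions in any group. Of all regions between coding sequences, 16.0% of those of 1000 to under 2000 bp held a stretch, and 49.7% of those of 2000 to under 4000 bp. The groups were compiled with earlier results known and give no test.

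Bodies of coding genes were touched rarely. A stretch overlapped 199 of 4853 gene bodies, or 4.1%, and the coding extent of 88. The whole coding extent of 21 genes lay within stretches. These 21 had 93 to 795 bp with a median of 348 bp, against 1234 bp over all arm genes. Only an extent no longer than a stretch can lie within it, so their shortness follows in part from the choice. Apart from *ura4*, 16 of them are annotated as encoding an uncharacterized protein. This is the annotation of 6.74% of arm genes of all lengths, and genes of like length were not compared. The other 4 are *mug* genes, named for their rise in meiosis, of which *mug114* has 456 bp and *mug116* 408 bp.

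Some coding stretches lay in repeated sequence of cell surface genes. SPBPJ4664.02, whose repeat is printed above, had 2431 bp of its coding extent in stretches, the most bases of any gene. This was 20.4% of the extent. In its longest coding stretch, 1413 bp at chrII:694116-695528, 90.4% of bases matched those 72 bp further on. *gsf2*, which encodes a flocculin, had 752 bp, of which the stretch chrIII:959916-960371 was unique at 7.02% of start positions. *map4*, which encodes an agglutination protein of mating, had 465 bp in a stretch whose 150-base words were all unique. Over all stretches, 96.7% of start positions began a unique 150-base word, against 99.0% in the arms. Every word was unique in 504 stretches, and in 11 fewer than 50% were. One of these, 817 bp between *rrb1* and *aha1*, lies in a sequence of 1126 bp whose bases are identical at a shift of 588 bp. The part of uniqueness in these stretches was not tested.

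Retrotransposon remnants were touched more often than coding gene bodies or non-coding RNA genes. Of 194 annotated LTRs in the arms, 73, or 37.6%, held a base of a stretch, and 23 lay wholly inside one. In all, 62 stretches held an LTR, and 3 of 13 full Tf2 elements were touched. Among the 62, uniqueness of 150-base words varied. It was 1.37% of start positions at chrI:1465326-1465763 and 100% at chrI:106493-106810, and its part was not tested. Non-coding RNA genes were touched in 630 of 6622 cases, or 9.51%, and 366 stretches held non-coding RNA sequence. Of 114 tRNA genes outside the centromeres, 2 were touched, both wholly inside, in stretches of 977 and 538 bp. Both are named by their amino acid, alanine beside *erg31* and threonine beside *rrp41*. Of 6 snRNA genes, *snu1*, which encodes the U1 RNA of the spliceosome, lay wholly inside a stretch.

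The stretches were slightly richer in A and T than the arms, at 66.2% against 63.8%, and their median was 66.9%. The median of arm windows of the same lengths was 63.8% and that of windows of non-coding RNA or unannotated sequence only 68.4%, and 246 of 533 stretches lay above the latter. Within one kind of sequence the direction differed. Non-coding RNA was 64.1% A or T in the stretches and 67.2% elsewhere in the arms, and untranslated exons were 64.7% and 69.3%. Unannotated sequence was 71.6% in the stretches and 69.7% elsewhere. The longest stretches were less rich in A and T. The 182 stretches of 300 to under 500 bp had a median of 69.3%, and the 79 of at least 1000 bp 64.4%. Non-coding RNA made up 31.0% of the former and 58.8% of the latter.

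A run of 10 or more A or T, as printed for *hsr1* and *gmh4*, occurred in 184 stretches, or 34.1%, against 8.71% of arm windows and 25.5% of the non-coding windows of the same lengths. TGACGT, the core of the site of Atf1 and Pcr1, occurred in 14.6% against 9.38% and 9.75%. ACGCGT, the site of the MBF factor of S phase genes, occurred in 2.22% against 4.26% and 4.10%, and GAANNTTC, a part of the heat shock element, in 13.3% against 23.3% and 19.1%. TATAAA, which overlaps TATANATA, occurred in 62.8% against 49.3% and 60.0%. GTAAACA, a forkhead site, occurred in 22.2% against 17.2% and 26.7%, and CAGTCACA, the HomolD box of ribosomal protein genes, in 1.11% against 1.23% and 1.12%. Both strands were searched, and a match is a description of the letters and not of binding.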

How the data were processed

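Cells were immunoprecipitated with an anti-GFP antibody in 1 library per strain (untagged, WT, *SUMO-KallR*). After trimming with cutadapt, the authors aligned reads by Bowtie2 against ASM294v2 and sacCer3 (the calibrator), removed unmapped, rDNA, mitochondrial and duplicate reads with SAMtools, and called peaks per library over its input with MACS3. The sources used here give neither tool versions nor the cutoff of bdgpeakcall. Per the labels, background was later removed more stringently. The deposited lists hold the start, end and score of each peak, and the authors left the columns for enrichment and significance at 0. The score was divided by 10 to give a height, which by the convention of MACS is a −log10 *p*-value, though no header states it. The study states total and uniquely mapped reads for each library, but the lists hold no read numbers, so no count interval was given for a peak or an edge. The input libraries were not analysed here.

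Peak coordinates were read on ASM294v3 with its RefSeq annotation, since its nuclear chromosomes have the lengths used to choose the stretches. Uncovered stretches were found base by base. A base was assigned to the first of coding exon, LTR, structural RNA, untranslated exon, intron, pseudogene, non-coding RNA and unannotated that held it. Windows of the same length were laid end to end along the arms. A word was unique when it occurred once on either strand. The gap and word functions were tested on simulated data. Stretches were named when among the 25 longest, the 3 longest of a kind, at a marker gene, within 300 bp of a listed coding start (up to 4 per group) or just above the minimum, and genes of the groups with a stretch further upstream, all glycolytic genes among them, were named after their values were seen. Members and groups were chosen with earlier results of these data known, and the glycolysis group was not among the groups listed beforehand. Analyses ran in Python 3.11.15 with pandas 2.3.3, NumPy 2.4.6, matplotlib 3.10.9 and SciPy 1.17.1.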

Additional observations from a re-analysis of the deposited data

How the results depend on the processing

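Of 43 values recomputed under alternatives, 32 stayed close to the main one and 11 moved. Close meant within 1.5 times for counts and sums and within a 95% interval for medians and shares. For shares of bases this interval treated each of the 540 stretches as 1 trial, so it is a loose rule and no measure of error. The alternative that added the WT list could change no value, since no WT peak overlapped a stretch. With a minimum length of 100 bp the median length was 370 bp. With 500 bp there were 215 stretches with a median of 838 bp, a median spacing of 29932 bp and 26.1% of bases outside any annotated gene, against 32.9% with 200 bp. Merging peaks of a list closer than 500 bp left 238 stretches with a median of 779.5 bp and 26.1% of bases outside genes. With non-coding RNA genes ignored, that share was 82.5%. Gene bodies touched numbered 126 with an overlap of at least 100 bp and 442 with 300 bp upstream added, against 199. Alternatives added after the data had been seen were the spacing with 500 bp, the number and length of stretches of unique words only (504 stretches), and the peaks at an edge with a score of at least 30 (553 untagged peaks, against 561). The SPAC27D7.09c stretch was the longest and the *hsr1* stretch had 5059 bp under each of the 8 alternatives to the choice of stretches, while leaving out 200 kb at the ends removed the *ura4* stretch.

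No paired analysis was possible because each strain gave 1 ChIP library. No replicate was left out for the same reason, and no value has an experimental error. The cutoff of the peak caller and the reads behind each edge are not in the lists.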
